A study of Mus musculus with 4 samples.

Results

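The genes described here are 10 transcription factors and inhibitors that share the helix-loop-helix fold. They are the E proteins Tcf3 and Tcf12, the inhibitors Id1, Id2, Id3 and Id4, the proto-oncogene Myc with its partner Max, and the upstream stimulatory factors Usf1 and Usf2. They were taken by gene symbol, and all 10 were found among the 19445 genes with a value in at least 1 library. Expression was measured by sequencing of polyadenylated RNA from pachytene spermatocytes, the germ cells in the long prophase of the first meiotic division. The cells came from testes of adult C57BL/6 mice that were wild type (Tcfl5+/+, 2 libraries) or heterozygous (Tcfl5+/-, 2 libraries) for Tcfl5, itself a basic helix-loop-helix gene of male germ cells. The design compares gene expression at a full and at a lowered dose of Tcfl5. The sources used here do not say which part of Tcfl5 the disrupted copy lacks, nor whether the replicates came from separate animals. The p-values therefore rest on a spread between samples that may be technical.

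Basic helix-loop-helix proteins bind DNA as pairs, each partner touching a short motif called the E-box (CANNTG). E proteins are broadly expressed and pair with tissue-restricted partners, while Id proteins lack the basic DNA-binding region and hold E proteins in pairs that cannot bind. MYC, the MXD proteins and MNT all pair with MAX, and the MXD and MNT pairs with MAX repress sites that MYC pairs activate. USF1 and USF2 bind the E-box variant CACGTG with a leucine zipper next to the helix-loop-helix. In the testis, Id4 is known in mice as a marker of spermatogonial stem cells, and Sertoli cells, the somatic nurse cells of the tubule, also express Id genes.

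The 250 bases before the annotated transcript start were searched for the E-box in RefSeq promoters (GRCm38.p6). These matched 7 of the 10 genes with 10 start sites. Id1, Myc and Usf2 had no window and were not searched. CANNTG reads the same on both strands and includes CACGTG. It was present at 4 of the 10 start sites, of Id2, Tcf3 and Tcf12 (2 starts), and in 66.2% of 32851 windows of the same length across all genes. CACGTG was at none of these 10 start sites and in 6.02% of all windows. A match here is a run of letters and not a site shown to be bound. Id4 is the most abundant of the 10 genes, Id2 the searched Id gene whose window holds an E-box, and Tcf3 an E protein gene. Their promoters are shown with the E-box in capitals. They lie at chr13:48260866-48261115 on the plus strand, chr12:25096093-25096342 on the minus strand and chr10:80433636-80433885 on the minus strand.
Id4: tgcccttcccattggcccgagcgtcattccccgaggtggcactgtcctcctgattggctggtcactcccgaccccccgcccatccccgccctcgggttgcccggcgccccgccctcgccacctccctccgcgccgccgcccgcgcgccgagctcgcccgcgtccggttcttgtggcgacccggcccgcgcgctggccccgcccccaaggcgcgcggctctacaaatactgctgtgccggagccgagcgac
Id2: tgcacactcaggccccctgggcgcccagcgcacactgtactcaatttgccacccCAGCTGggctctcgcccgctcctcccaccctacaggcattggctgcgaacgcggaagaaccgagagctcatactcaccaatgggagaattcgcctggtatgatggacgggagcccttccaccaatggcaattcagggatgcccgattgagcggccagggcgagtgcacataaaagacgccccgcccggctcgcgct
Tcf3: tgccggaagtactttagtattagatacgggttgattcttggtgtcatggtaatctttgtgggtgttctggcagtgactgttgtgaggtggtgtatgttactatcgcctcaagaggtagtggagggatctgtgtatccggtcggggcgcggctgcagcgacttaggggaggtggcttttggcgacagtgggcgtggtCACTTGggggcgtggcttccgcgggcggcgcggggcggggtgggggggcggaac
The E-box of Id2, CAGCTG, begins 196 bases before the start, and that of Tcf3, CACTTG, 54 bases before it. These starts are those of the promoter set and can differ from the gene coordinates given below. The window of Tcf3 lies within those coordinates, and that of Id4 ends some way before the gene.

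The values are FPKM, which scale reads to the length of a transcript and to the size of a library, so levels of different genes can be set side by side. Between 17954 and 18360 genes had a value in each library, and total reads per library were not given, so the depth is unknown. Among single-transcript genes of 900 to 1000 bases the commonest value was 0.06 FPKM in every library. Tcfl5 was lower in both heterozygote libraries (137.0 and 188.5 FPKM) than in the wild type (248.7 and 237.7 FPKM). All 13 markers of the labelled cell type were listed, with a summed level of 5755 and 6051 FPKM in the wild-type libraries and of 5395 and 5614 FPKM in the heterozygote libraries. Of these markers 10 had a negative log2 difference, and 0 passed the test described below. In each heterozygote library 7 were below both wild-type libraries and 1 was above both, against 19% and 23.6% of all genes tested. Other cell types were represented as well. The summed level of 20 Sertoli cell markers was 852.8 and 552.3 FPKM in replicates 1 and 2 of the wild type, and 843.6 and 300.0 in the heterozygotes. For 9 Leydig cell markers it was 561.2 and 353.1, and 606.7 and 322.2 FPKM. Those of 12 elongating spermatid markers were 3310 and 2403 FPKM in the wild type, against 4290 and 3683 in the heterozygote. Of these 12 markers 11 had a positive log2 difference and 0 passed. In each heterozygote library 4 (Prm1, Prm2, Tnp1 and Tnp2) were above both wild-type libraries and 0 were below both. The rest overlapped between the genotypes. None of the markers was at 0 in any library. In such bulk samples, fewer cells of a type and less RNA per cell cannot be told apart.

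The level of Id4 was the highest of the 10 genes, and those of Myc and Id1 were the lowest. By mean level over the 4 libraries the order was Id4 (44.9 FPKM), Usf2 (14.3), Max (10.3), Usf1 (4.91), Id2 (2.2), Tcf12 (2.10), Tcf3 (2.06), Id3 (0.968), Myc (0.853) and Id1 (0.463). The ranges of Id4, Usf2 and Max did not overlap with each other or with any other member. From Usf1 downwards the range of each gene overlapped with that of the next in the order. Compared within each library, Usf1 was still above Id2, Tcf3 above Id3 and Myc above Id1 in all 4 libraries. Id2 was above Tcf12 in 3 of 4, and Tcf12 above Tcf3 and Id3 above Myc in 2 of 4. Id4 lay above 82.7% of the 13333 genes whose mean reached 0.5 FPKM, and Tcf3 above 23.5% of them. With 0.4625 FPKM Id1 fell below that minimum, so 9 of the 10 genes were tested.

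**Figure D1:**
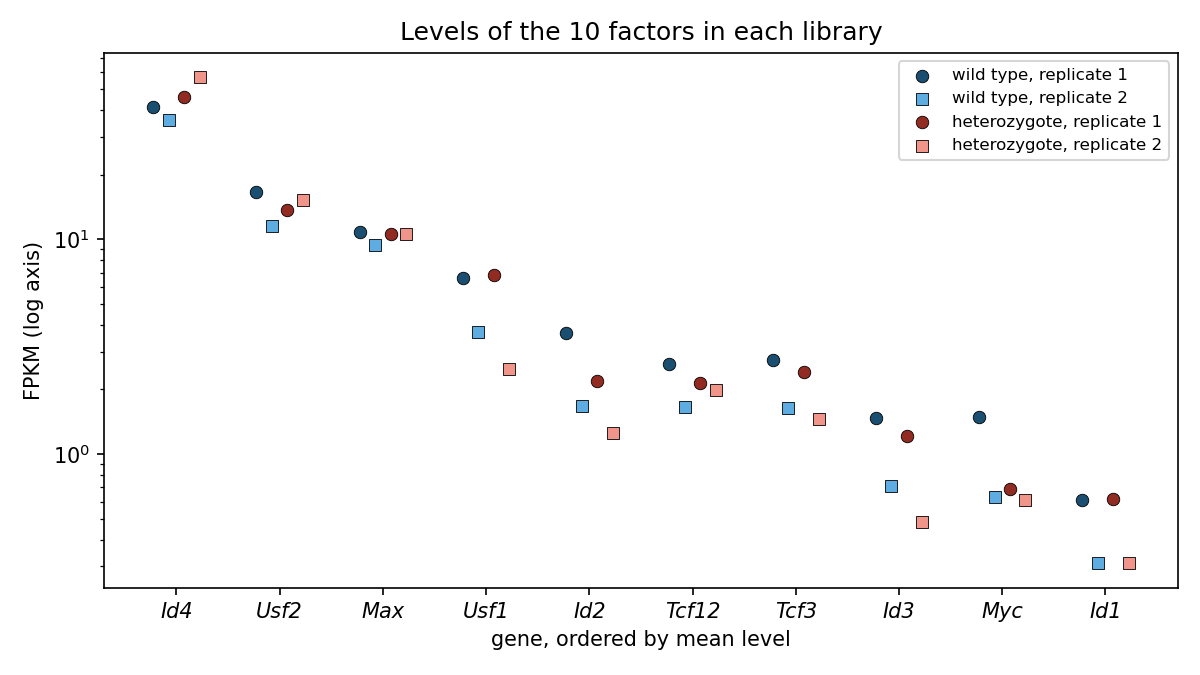
Level of each gene in FPKM (vertical log axis) in the 4 libraries, with genes ordered by mean level. Circles are replicate 1 and squares replicate 2, blue for wild type and red for heterozygote. Id4 sits between 35.9 and 56.8 FPKM, above every other gene, and the squares of Usf1, Id2, Tcf3, Id3 and Id1 lie below the circles of the same genotype.

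None of the 9 tested genes was called between the genotypes. The test was limma-trend on log2(FPKM + 1) with a single term for genotype, two-sided, at a Benjamini-Hochberg adjusted p under 0.05. It called 0 of 13333 genes, which is 0%, and at an unadjusted p under 0.05 it held 1 of the 9 members against 1759 genes, 13.2% of all tested. The median log2 difference (heterozygote minus wild type) was -0.12 over the 9 members and -0.02 over all genes. Of the members 3 had a positive difference and 6 a negative one. Libraries of the genotypes did not overlap for 1 of the 9 members (Id4) and for 42.6% of all genes, so separation of the libraries was no more frequent among the members than among all genes.

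The E proteins were low and close to each other. Tcf3 (chromosome 10, 80409165 to 80433960, minus strand; these and later coordinates are those of the files, on GRCm38) encodes E12 and E47 by alternative splicing, and the values cover the whole gene. It was at 2.75 and 1.63 FPKM in replicates 1 and 2 of the wild type, and at 2.41 and 1.45 FPKM in heterozygote replicates 1 and 2. Replicate 2 was the lower library in both genotypes and the genotypes overlapped. The log2 difference was -0.12 with a standard error of 0.29 (limma-trend, adjusted p = 0.911), and the 95% interval of the difference reached from -0.86 to 0.62. Tcf12 (chromosome 9, 71844252 to 72111819, minus strand), which encodes the E protein HEB, was at 2.62 and 1.66 FPKM in the wild type and at 2.15 and 1.98 FPKM in the heterozygote. The heterozygote values lay between those of the wild type. Its log2 difference was -0.02 with a standard error of 0.23 (limma-trend, adjusted p = 0.982; interval -0.62 to 0.58).

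Some of the genes listed as relatives and partners of E proteins were more abundant than Tcf3 and Tcf12, but most were below them. Summed over Tcf3 and Tcf12, the E proteins were at 5.37 and 3.29 FPKM in the wild type and at 4.56 and 3.43 FPKM in the heterozygote, so that Tcfl5 exceeded this sum by 30.1-fold to 72.3-fold per library. The remaining E protein gene, Tcf4, was at 5.42 to 7.01 FPKM over the 4 libraries, above the highest value of Tcf3 and Tcf12. Mesp1, a bHLH gene known for cardiac mesoderm, was at 113.4 to 138.3 FPKM. Tcf4 and Mesp1 were singled out after their values were seen. Of the 27 genes listed as E protein relatives and partners, 21 had a value and 9 were tested, of which 0 passed in either direction. Their median log2 difference was -0.01. After Tcfl5, the smallest p belonged to Sohlh2, a bHLH factor of spermatogonia, at 6.17 and 3.84 FPKM in the wild type and at 2.54 and 2.09 FPKM in the heterozygote, 2.16-fold apart (limma-trend, adjusted p = 0.290). Figla, known from oocytes, was at 0.45 and 0.31 against 0.82 and 0.57 FPKM (limma-trend, adjusted p = 0.610).

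Among the Id genes, Id4 was the single member with no overlap between the genotypes, while Id1, Id2 and Id3 were low. Id4 (chromosome 13, 48261427 to 48264036, plus strand) was at 41.1 and 35.9 FPKM in replicates 1 and 2 of the wild type, and at 46.1 and 56.8 FPKM in heterozygote replicates 1 and 2. Both heterozygote libraries were above both wild-type libraries, as was so for 23.6% of all genes. The heterozygote mean was 51.4 ± 7.56 FPKM and the wild-type mean 38.5 ± 3.70 FPKM (SD, n = 2 each), which are 1.34-fold apart. The log2 difference of 0.40 with a standard error of 0.14 did not pass (limma-trend, adjusted p = 0.319; unadjusted p = 0.0339). It was 0.26 without heterozygote replicate 2 and 0.55 without heterozygote replicate 1. GENCODE M21 places 82 and 171 exonic bases of a pair of genes on the opposite strand within exons of Id4. No strand-keeping step is named in the protocol, and reads there cannot be assigned to either strand.

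Most tested markers of spermatogonia had the sign opposite to that of Id4. Of 11 markers 7 were tested, 2 with a positive and 5 with a negative log2 difference, and 0 passed. In both heterozygote libraries 1 of the 7 (Gfra1) was higher than in either wild-type library, and 2 (Stra8, Ddx4) were lower. Of all genes tested, 23.6% were higher and 19% lower in this way. The summed level of the 11 genes came to 338.6 and 305.5 FPKM in the wild type and to 296.2 and 284.4 in the heterozygote, most of it from Ddx4, an RNA helicase that later germ cells also express. The stem cell genes Zbtb16 (0.24 to 0.38 FPKM) and Gfra1 (0.98 to 1.96 FPKM) were far below Id4 in every library. Uchl1, of the same list, came nearer to Id4, and Ddx4 was above it. Uchl1 was at 24.5 and 14.2 FPKM in the wild type and at 27.2 and 14.9 FPKM in the heterozygote. Gfra1, a receptor subunit for GDNF, was higher in both heterozygote libraries (1.96 and 1.32 FPKM) than in the wild type (1.22 and 0.98 FPKM). Stra8, a gene of the entry into meiosis, was at 3.77 and 1.48 against 0.93 and 0.81 FPKM. Zbtb16 was below the minimum and was not tested, and the part of spermatogonia in the level of Id4 was not tested.

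Id2 (chromosome 12, 25093799 to 25096092, minus strand) was at 3.66 and 1.68 FPKM in the wild type and at 2.19 and 1.25 FPKM in the heterozygote. Replicate 2 was lower in each genotype and the genotypes overlapped (log2 difference -0.40, standard error 0.35; limma-trend, adjusted p = 0.757). Id3, which the files place on a scaffold outside the primary chromosomes and RefSeq on chromosome 4, was at 1.47 and 0.71 against 1.21 and 0.48 FPKM (log2 difference -0.18, standard error 0.30; limma-trend, adjusted p = 0.875). Id1 (chromosome 2, 152736234 to 152737410, plus strand) was at 0.61 and 0.31 FPKM in the wild type and at 0.62 and 0.31 FPKM in the heterozygote. Id1 was below the minimum and was not tested. Set against 0.06 FPKM, the commonest value of single-transcript genes of 900 to 1000 bases, Id1 was 10.2 and 10.3 times as high in replicate 1 and 5.2 times in replicate 2 of both genotypes. Id3 was 24.5 and 20.2 times as high in replicate 1 and 11.8 and 8.0 times in replicate 2. How many reads this stands for is unknown.

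Id4 made up most of the summed Id level. Its share was 87.7% and 93.0% in the wild type and at 92.0% and 96.5% in the heterozygote. The summed Id level was 8.72 and 11.7 times that of Tcf3 and Tcf12 in wild-type replicates 1 and 2, and 11 and 17.1 times in the heterozygotes. With Tcf4 added to the E proteins, the ratios fell to 3.996 and 4.43 in the wild type, and to 4.33 and 6.46 in the heterozygotes. The ratios without Tcf4 overlapped between the genotypes, as did those with it. Id1, Id2 and Id3 together were below the sum of all 3 E protein genes in every library, which was 2.04 and 3.23 times theirs in the wild type and 2.88 and 4.46 times in the heterozygotes. Against Tcf3 and Tcf12 alone they were lower in 3 of the 4 libraries, by 1.13-fold to 1.68-fold, and higher in wild-type replicate 1. These are ratios of FPKM levels of RNA and not of proteins.

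**Figure D2:**
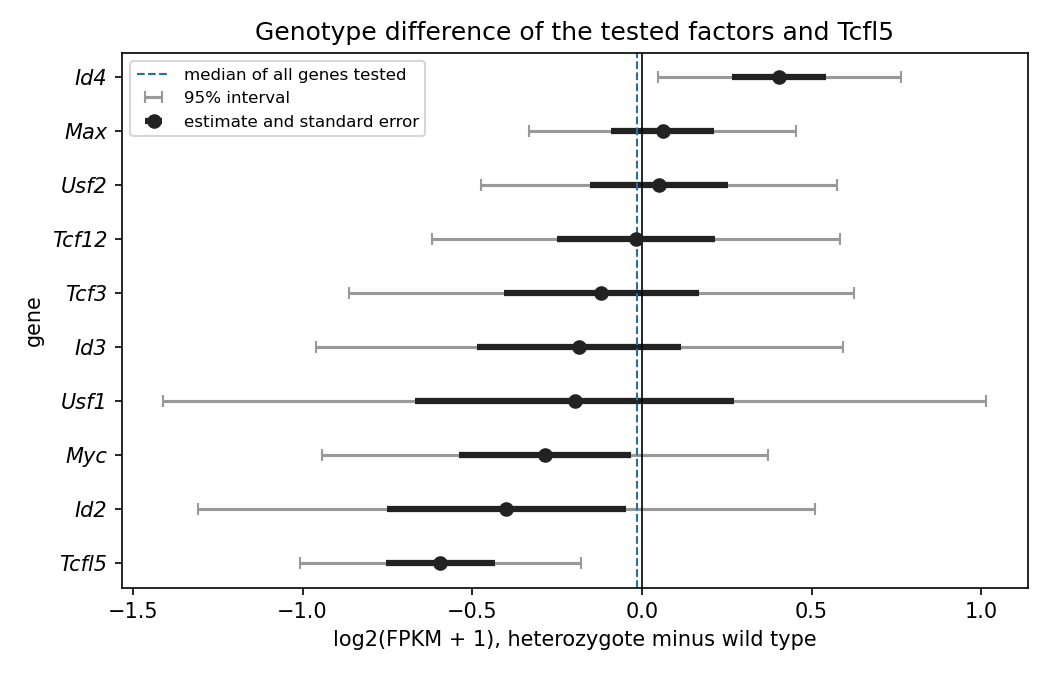
Genotype difference on the log2(FPKM + 1) scale, heterozygote minus wild type, for the 9 tested genes and Tcfl5 (points), with the standard error (thick bars) and the 95% interval (thin bars) from limma-trend. The dashed line is the median of all 13333 genes, -0.02. Id4 and Tcfl5 are the genes whose unadjusted interval leaves out 0, and neither passed after adjustment (adjusted p = 0.319 and 0.242).

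Usf1, Id1, Id2, Id3 and Tcf3 followed the replicate number more than the genotype. Of all 10 members 8 were lower in replicate 2 than in replicate 1 in both genotypes, and of the 9 tested 7, against 43.9% of all genes tested. Replicate 1 was 1.97-fold and 2-fold above replicate 2 for Id1 (wild type and heterozygote), 2.18-fold and 1.75-fold for Id2, and 2.07-fold and 2.52-fold for Id3. It was 1.69-fold and 1.66-fold for Tcf3. The summed Sertoli markers were 1.54-fold and 2.81-fold higher in replicate 1, the Leydig markers 1.59-fold and 1.88-fold and the round spermatid markers 1.65-fold and 1.37-fold. The pachytene markers were 0.951 and 0.961 times as high. All 18 tested Sertoli markers, all 9 Leydig, all 11 round spermatid and 11 of 12 elongating spermatid markers were lower in replicate 2 of both genotypes, against 1 of 13 pachytene markers. Their part in the levels of these members was not tested. What the replicate numbers stand for is not given in the labels.

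**Figure D3:**
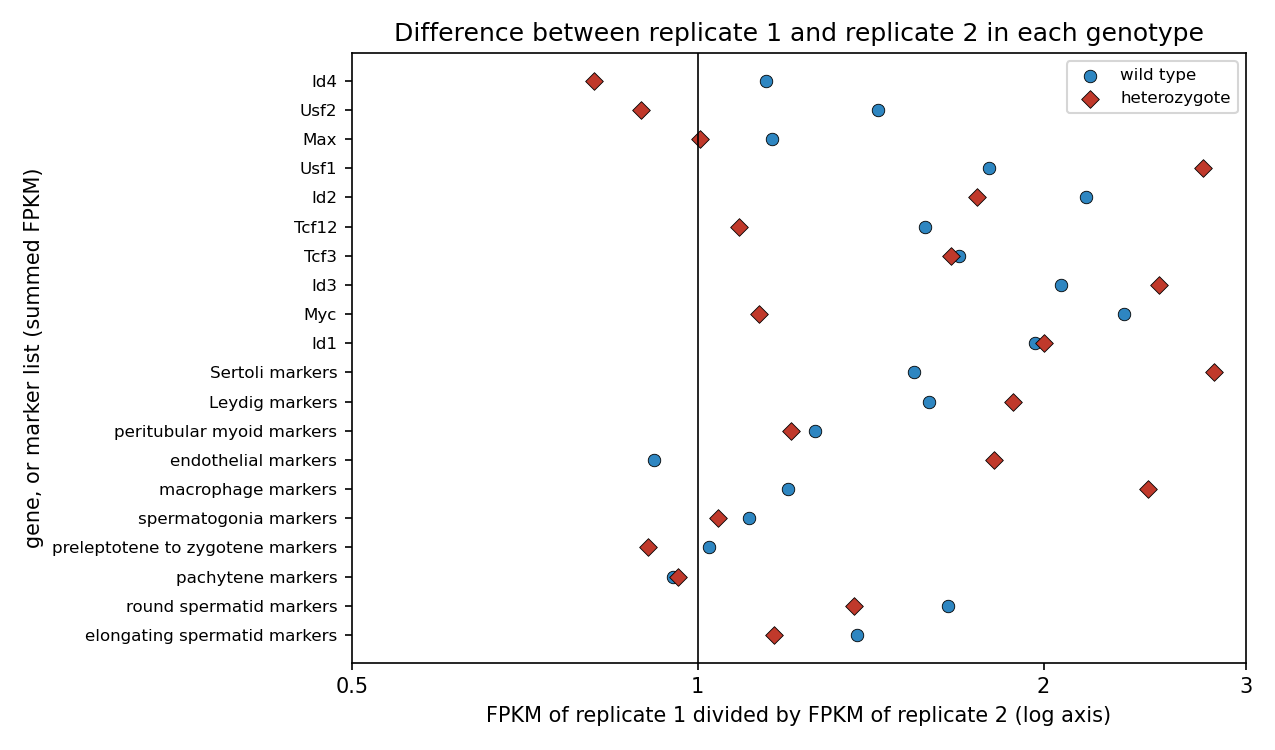
FPKM in replicate 1 divided by that in replicate 2 (horizontal log axis) in the wild type (circles) and the heterozygote (diamonds), for the 10 genes and for the summed FPKM of each marker list. Id1, Id2, Id3, Usf1 and Tcf3 lie between 1.66 and 2.75 in both genotypes, while Max lies nearer to 1, at 1.16 in the wild type. In wild type and heterozygote, the Sertoli markers lie at 1.54 and 2.81 and the Leydig markers at 1.59 and 1.88. The round spermatid markers lie at 1.65 and 1.37, and the pachytene markers at 0.951 and 0.961.

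The upstream stimulatory factors differed from each other in this respect. Usf1 (chromosome 1, 171411313 to 171418759, plus strand) was at 6.63 and 3.70 FPKM in replicates 1 and 2 of the wild type, and at 6.83 and 2.48 FPKM in the heterozygotes. The fold between replicates, 1.79 and 2.75, was larger than that between the genotype means of 5.17 ± 2.07 and 4.66 ± 3.08 FPKM (SD, n = 2 each). Its log2 difference was -0.20 with a standard error of 0.47 (limma-trend, adjusted p = 0.911), and the interval from -1.41 to 1.01 leaves room for a change of more than 2-fold either way. Usf2 (chromosome 7, 30945248 to 30957367, minus strand) was at 16.6 and 11.6 FPKM in the wild type and at 13.6 and 15.3 FPKM in the heterozygote. Replicate 2 was the lower one in the wild type alone. Usf2 exceeded Usf1 in every library, by 2.51-fold and 3.13-fold in the wild type and by 1.99-fold and 6.15-fold in the heterozygote. For Usf2 the log2 difference was 0.05 with a standard error of 0.20 (limma-trend, adjusted p = 0.947). GENCODE M21 gives Usf2 74 and 167 exonic bases shared with a pair of genes on the opposite strand, and Usf1 200 shared with Tstd1 on the same strand, which was at 0.11 to 0.21 FPKM.

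Usf1 had the widest span over the libraries of the tested members, 1.17 on the log2(FPKM + 1) scale. The genes most like it were sought among 7478 tested genes whose mean reached 5 FPKM, by Euclidean distance between log2 values centred on each gene's mean over the 4 libraries. The nearest 5 were Smpx, Fxyd6, Cycs, Egr1 and Cul4b, at distances of 0.068 to 0.086. The immediate early gene Egr1 was at 19.6 and 12 FPKM in the wild type and at 21.1 and 9.18 FPKM in the heterozygote. Cycs, which encodes somatic cytochrome c, was at 14.3 and 8.26 against 15.5 and 5.82 FPKM. With 4 libraries many genes can come this close, so the likeness is a description.

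Max was the steadiest of the 10 genes and Myc was barely present. Max (chromosome 12, 76937269 to 76962343, minus strand) was at 10.9 and 9.36 FPKM in the wild type and at 10.6 and 10.5 FPKM in the heterozygote, a span of 1.16-fold. The heterozygote values lay within the wild-type range (log2 difference 0.06, standard error 0.15; limma-trend, adjusted p = 0.914; interval -0.33 to 0.45). Myc (chromosome 15, 61985341 to 61990361, plus strand) was at 1.48 and 0.63 FPKM in the wild type and at 0.69 and 0.61 FPKM in the heterozygote. Wild-type replicate 1 stood above the other libraries, which lay between 0.61 and 0.69 FPKM. The log2 difference of -0.29 with a standard error of 0.25 (limma-trend, adjusted p = 0.759) became 0.02 without that library. The related Mycn and Mycl were at 0.09 to 0.31 and 0.02 to 0.15 FPKM.

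The partners that compete with MYC for MAX were far more abundant. Mxi1 was at 32.9 to 55.1 FPKM, Mxd4 at 23.8 to 43.5, Mnt at 14.0 to 19 and Mxd1 at 14.2 to 19.4 FPKM, each above Max in every library. Summed with Mxd3, which was at 0.02 to 0.14 FPKM, they came to 133.3 and 133.1 FPKM in the wild type and to 103.5 and 84.9 FPKM in the heterozygote. Over Myc, Mycn and Mycl together this was 69.1-fold and 157-fold in the wild type, and 100-fold and 118-fold in the heterozygote. The heterozygote libraries were the lower ones for the sum, 1.41-fold by means of 133.2 ± 0.127 and 94.2 ± 13.1 FPKM (SD, n = 2 each). This grouping of antagonists was made after the values were seen and was not tested.

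**Figure D4:**
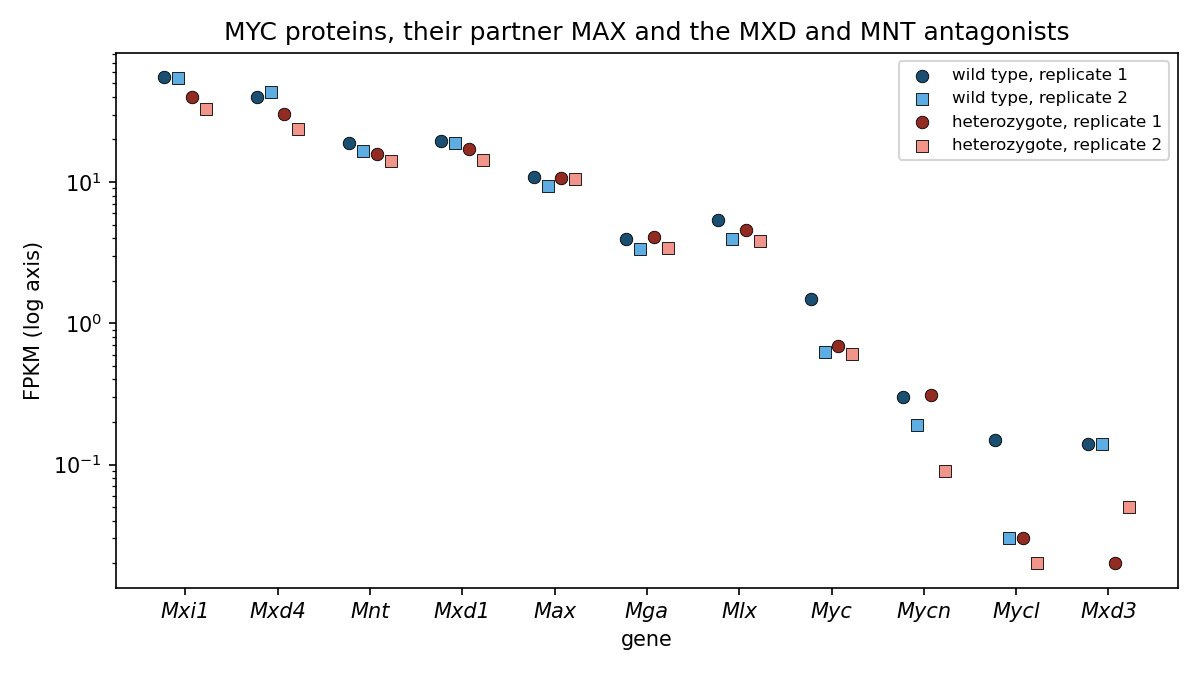
Level in FPKM (vertical log axis) of the MXD and MNT antagonists, Max, Mga, Mlx and the MYC genes in each library. Circles are replicate 1 and squares replicate 2, blue for wild type and red for heterozygote. Mxi1, Mxd4, Mnt and Mxd1 lie above Max, which lies between 9.36 and 10.9 FPKM, and Myc lies at 1.48 FPKM or less.

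Of the 15 genes listed for the MYC and MXD network 12 were tested, and 0 passed in either direction. Of the 12 genes 9 had a negative difference, with a median log2 difference of -0.11. Mxi1 was at 55.1 and 54.2 FPKM in the wild type and at 40.1 and 32.9 FPKM in the heterozygote, 1.5-fold apart (limma-trend, log2 difference -0.58, standard error 0.12, adjusted p = 0.182). Mxd4 was at 39.7 and 43.5 against 30.4 and 23.8 FPKM, 1.54-fold apart (limma-trend, adjusted p = 0.212). Both genes were lower in each heterozygote library than in either wild-type library. Of the 12 genes 6 were lower in this way and 2 higher, against 19% and 23.6% of all genes tested. Zbtb17, which encodes MIZ1, a zinc finger partner of MYC in repression, had the opposite sign, at 13.3 and 11.4 against 16.9 and 20.5 FPKM (limma-trend, adjusted p = 0.255). None of these passed. The summed pachytene markers were also lower in both heterozygote libraries. Most of that sum came from Ldhc, at 3610 and 3858 FPKM in the wild type and at 3702 and 3858 FPKM in the heterozygote. The median pachytene marker was at 165 and 169 against 129 and 116 FPKM. The part of pachytene markers in the levels of Mxi1 and Mxd4 was not tested.

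Max also belongs to the PRC1.6 complex, in which it pairs with MGA and which is known to repress germ cell genes in mouse embryonic stem cells. All 14 listed genes of the complex were tested and 0 passed, with 8 negative differences and a median of -0.05. Mga itself was at 3.33 to 4.06 FPKM, and the genotypes overlapped. Hdac1, a histone deacetylase, was at 149.8 and 147.1 FPKM in the wild type and at 126.2 and 129.0 FPKM in the heterozygote (limma-trend, adjusted p = 0.279). Pcgf6, the subunit that defines the complex, was at 75.0 and 78.0 against 61.4 and 68.2 FPKM (limma-trend, adjusted p = 0.362). L3mbtl2 was at 33.9 and 38.3 against 28.5 and 31.0 FPKM (limma-trend, adjusted p = 0.416). These 3 had lower values in both heterozygote libraries and did not pass. Of the 14 genes, 4 were lower in this way and 2 higher, against 19% and 23.6% of all genes tested.

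Genes that MYC is known to activate showed no common direction. Of 30 listed, 29 were tested, 14 with a positive and 15 with a negative difference, 0 passed and the median log2 difference was -0.01. The nucleoside kinase gene Nme1 was at 23.8 and 19.7 FPKM in the wild type and at 32.0 and 33.1 FPKM in the heterozygote (limma-trend, adjusted p = 0.194). Cad, the enzyme that starts pyrimidine synthesis, was at 2.56 and 1.94 against 0.88 and 1.02 FPKM (limma-trend, adjusted p = 0.248). Pa2g4, a growth regulator that binds RNA, was at 66.8 and 63.4 against 76.9 and 79.0 FPKM (limma-trend, adjusted p = 0.276).

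Among other factors that bind E-boxes or related sites, 0 passed in either direction. Of 18 listed, 12 were tested, 11 with a negative difference. In each heterozygote library 5 were below both wild-type libraries and 1 was above both, against 19% and 23.6% of all genes tested. The median log2 difference was -0.24. The median was 0.02 without heterozygote replicate 2, so it rests on that library. Hey1, a repressor downstream of Notch signalling, was at 3.48 and 3.42 FPKM in the wild type and at 1.05 and 1.01 FPKM in the heterozygote. The replicates lay close together and the genotypes were 3.35-fold apart, but the log2 difference of -1.13 with a standard error of 0.18 did not pass (limma-trend, adjusted p = 0.151). Hes6 was at 2.69 and 2.25 against 1.43 and 1.35 FPKM (limma-trend, adjusted p = 0.337), and the clock repressor gene Bhlhe41 at 0.84 and 0.61 against 0.29 and 0.32 FPKM (limma-trend, adjusted p = 0.417).

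The BMP pathway induces Id genes in many cell types through SMAD proteins. RNA of its transducers and of some of its receptors was found. Of 27 listed genes 25 had a value and 15 were tested, of which 0 passed, with 10 negative differences and a median of -0.09. The ligand genes Bmp2, Bmp4, Bmp7, Bmp8a and Bmp8b were at 0.37 FPKM or less in each library. Among receptor genes, Acvr2a was at 4.90 to 5.72 FPKM and Bmpr1a at 3.24 to 4.41 FPKM. Bmpr1b, Bmpr2, Acvr1, Acvr2b and Acvrl1 were at 1.14 FPKM or less. Smad1, a transducer, was at 14.0 and 14.9 FPKM in the wild type and at 17.0 and 18.3 FPKM in the heterozygote (limma-trend, adjusted p = 0.468). Smurf1, an E3 ligase that targets SMAD proteins, was at 35.3 and 36.8 against 27.2 and 31.5 FPKM (limma-trend, adjusted p = 0.377). Eng, a co-receptor known from endothelium, was at 0.26 and 0.44 against 0.89 and 0.54 FPKM (limma-trend, adjusted p = 0.584). The summed level of 6 endothelial markers came to 2.18 and 2.38 FPKM in the wild type and to 3.82 and 2.11 in the heterozygote, and their part in the level of Eng was not tested.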

How the data were processed

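The authors deposited 1 table of FPKM per library, with values to 2 decimals. The build GRCm38 (mm10) and the tools RSEM 1.2.12, HISAT2 2.0.4 and Bowtie2 2.2.5 are named in the submitters' processing notes, without their roles. Libraries were single-end reads of 50 bases from oligo(dT)-selected RNA, per the labels' protocols. FPKM depends on all other transcripts of a library, and reads cannot be recovered at 2 decimals. Tables were joined by gene identifier, and a gene without a value in a library was set to 0. Of the genes 1593 had no value in any library and were left out, as was 1 row per table without a gene. Symbols turned into dates (27) were restored from RefSeq.

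Genes whose mean reached 0.5 FPKM were tested with limma-trend (limma 3.58.1, R 4.3.3) on log2(FPKM + 1), which understates the change of low genes. Adjusted p-values are Benjamini-Hochberg over all 13333 genes. Alternatives changed the pseudocount, the filter, the scaling, the replicate term or the libraries used. Members, gene lists and tests were chosen with earlier results of these data known. Named are the members, Tcfl5, the 3 tested genes of smallest p in each list, and the 5 genes most like the member of widest span. Others are named for their levels, after these were seen.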

Additional observations from a re-analysis of the deposited data

How the results depend on the processing

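None of the 9 tested members was called under any of the 11 alternatives that tested it (10 for Myc), nor was Id1 in the 1 that tested it, without a filter. Of 98 values for the 9 tested members, 85 kept their sign and 13 turned. With quantile normalization Tcf12 turned to 0.067. The other turns came without wild-type replicate 1 (Tcf3, Tcf12, Id3, Myc, Usf1), wild-type replicate 2 (Max, Usf2) or heterozygote replicate 2 (Tcf3, Tcf12, Id3, Usf1, Usf2). Without 1 library at a time, Tcf3 ranged from -0.38 to 0.14, Tcf12 from -0.24 to 0.20, Id3 from -0.47 to 0.10, Myc from -0.59 to 0.017, Max from -0.036 to 0.16, Usf1 from -0.78 to 0.39 and Usf2 from -0.19 to 0.29. Over all 11 alternatives Id4 stayed positive (0.26 to 0.55) and Id2 negative (-0.80 to -0.0005). With the replicate number as a block the adjusted p of Id4 was 0.0536 (limma-trend). Limma-trend called 0 of 13333 genes in the main setting, 65 with median-ratio scaling and 119 with quantile normalization; the cause was not tested. With the replicate number as a block it called 1213, Tcfl5 (-0.59) among them at adjusted p = 0.00339 and none of the members, with Sohlh2, Mxi1, Mxd4, Zbtb17, Hey1, Nme1 and Cad also called. The deviations of same-numbered libraries correlated at 0.529 across genes, but 2 pairs and labels without a shared source do not show that the numbers pair the samples. Without 1 library the lone library of a genotype is assumed to vary like the others; the count of called genes was then 0 and Tcfl5 ranged from -0.82 to -0.37. Equal-sum scaling moved the median of all genes to -0.06. Read depth is unknown, so no limit from counting was computed.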
